A study of Mus musculus with 2 samples.

Results

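Solute carriers are membrane proteins that move amino acids, sugars, metals, ions, vitamins, lipids and nucleotides across the plasma membrane and the membranes of organelles. Their genes, named Slc in the mouse, were examined in lung fibroblasts of mice given bleomycin or saline. The deposited table held 262 Slc rows among 16040 genes. The 152 with at least 10 counts over both libraries were taken as members, and they fall into 39 numbered families. Of the other Slc rows, 64 had 1 to 9 counts and 46 had none. Members were grouped by substrate, by family or, where members of a family carry different substrates, gene by gene. Of these, Slc9a3r1, Slc9a3r2 and Slc7a6os, carry an Slc symbol but encode no transporter.

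Both libraries came from mice of the strain labelled Col1a2-EGFP, in which a green fluorescent protein marks cells that use the promoter of the type 1 collagen gene Col1a2. Saline or bleomycin, a DNA-damaging drug used to produce lung fibrosis, was placed in the trachea, and lungs were taken at day 14. Cells that carried the reporter and lacked lineage markers were collected by flow cytometry, and tags from the 3′ ends of transcripts were counted by serial analysis of gene expression (SAGE). Each group is 1 library from fibroblasts of 3 mice, so no difference has a replicate check, and a test on the tags compares these libraries and not the conditions. The labels give no age or sex for the mice. In bulk samples, fewer cells of a type and less RNA per cell cannot be told apart.

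Solute carriers work without direct use of ATP. Some let a substrate run down its own gradient, some exchange a substrate for another, and others are driven by the sodium or proton gradient that ATP-driven pumps maintain. In fibroblasts they bring in the amino acids that collagen synthesis needs, carry nucleotide sugars and metals into the Golgi apparatus where matrix proteins are modified, and link the cytosol to the mitochondrial matrix.

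The saline library held 1080798 counts and the bleomycin library 1099840 counts, so counts of 1 gene can be read side by side. SAGE is designed to count a tag once per transcript, so counts were not divided by gene length. Genes were compared as the ratio of counts scaled to library size, and ranges in brackets after a ratio are exact 95% intervals that cover counting error only. A gene was called when the exact binomial test gave an adjusted p under 0.05 over all 9369 genes tested and the ratio was at least 2 in either direction. "Higher" and "lower" below mean in the bleomycin against the saline library. All 10 fibroblast markers listed were tested, of which 3 were higher (Col1a1, Col1a2 and Fn1) and 3 lower (Dcn, Dpt and Tcf21). The lowest count among them was 93, for Tcf21 in bleomycin against 338 in saline. Of 15 leukocyte markers listed, 11 were in the table. None of these reached 10 counts, together they had 8 and 5, and 6 were at 0 in both libraries. The 17 endothelial markers fell together, from a summed 554 CPM (counts scaled to library size) to 38.7, with 11 of 12 tested members called lower. Alveolar type 2 markers went from 210 to 38.7 CPM, with 2 of 4 tested lower, Sftpc and Lyz1, while Etv5 had 10 and 22 counts. Airway markers went from 535 to 158 CPM, mostly through Tppp3 with 535 and 153 counts. Alveolar type 1 markers differed little in sum, at 109 and 97.8 CPM, with 1 of 4 tested lower and Pdpn at 84 and 95 counts. Of 9 smooth muscle markers 4 were lower and 1, Des, higher, with a median log2 ratio of −0.93, while their sum went from 1911 to 2584 CPM through Des, Tagln and Acta2. Of 8 tested pericyte markers 3 were lower and 1, Postn, higher. Of the defining markers of other cells, Pecam1 had 53 and 3 counts, Sftpc 154 and 7, and Scgb1a1 46 and 12. Not all other cell types fell: mesothelial markers summed to 172 and 150 counts, with 0 of 2 tested called. The Schwann and neural marker S100b was higher, with 4 and 18 counts, and the erythroid marker Hba-a1 lower, with 29 and 7.

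Of the 152 members, 15 were called higher and 16 lower. Over all genes tested, 8.11% were called higher and 8.59% lower, 16.7% in all, against 20.4% of the members. The median log2 ratio of the members was 0.016, the same as over all genes tested. This is the value of a gene with equal counts in both libraries. The middle 50% of members ran from −0.61 to 0.72, against −0.59 to 0.54 over all genes. Past 2-fold without a test were 31 members on the higher and 21 on the lower side, 34.2% of members in all. Of all genes tested 13.2% were on the higher and 14.2% on the lower side, 27.4% in all. The members held 0.745% of saline counts (exact 95% interval 0.729 to 0.761) and 0.747% of bleomycin counts (0.731 to 0.764). Their summed level therefore differed little between the libraries, while single members differed up to 22-fold. The selection by a sum of 10 counts favours members that are high in at least 1 library: 31 members had 10 or more counts in a single library, and 7 of these were called. The counts of calls are therefore a description of the members.

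**Figure D1:**
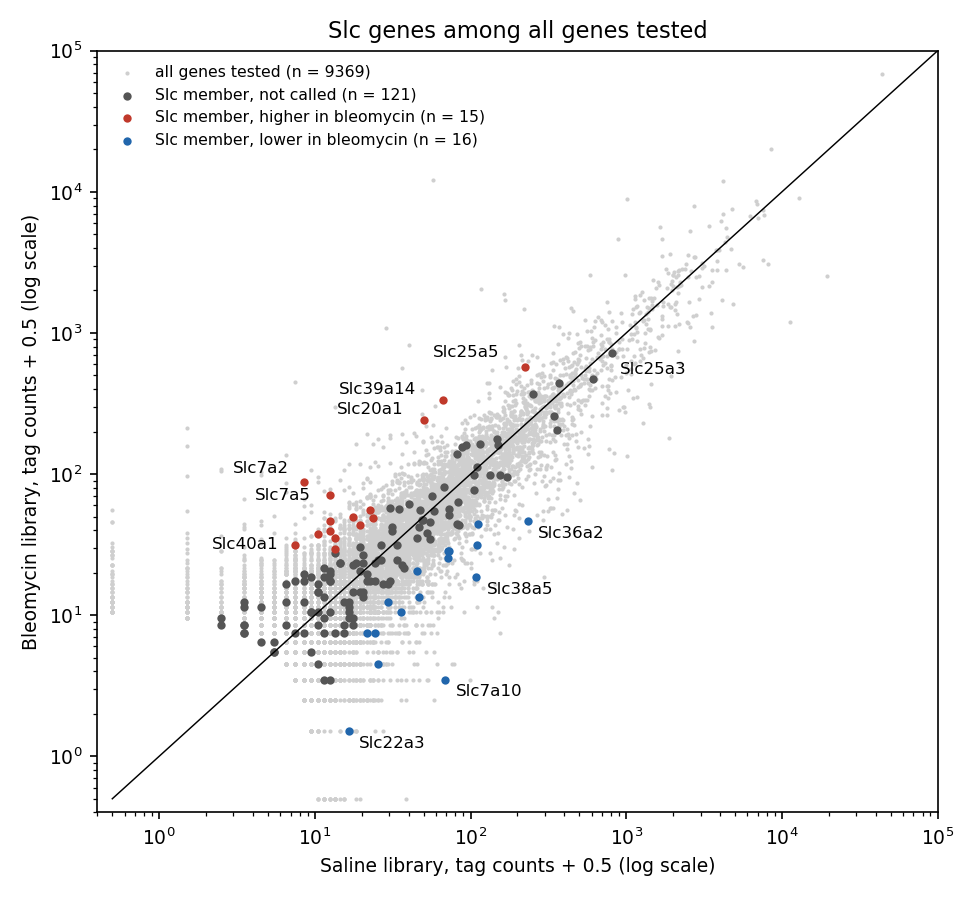
Tag counts of every tested gene in the saline library (horizontal, log scale) against the bleomycin library (vertical, log scale), with 0.5 added to each count. Slc members are dark grey where not called (121), red where higher (15) and blue where lower (16), and the diagonal marks equal counts.

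Among the most abundant members with paired roles, the adenine nucleotide carriers Slc25a4 and Slc25a5 differed in their ratio, and the amino acid transporters Slc7a10 and Slc38a5 had the largest falls of the members whose higher library held at least 50 counts. The 250 bases before the annotated start of these genes were chosen after the values were seen, and are shown because they set side by side a pair of near-identical carriers and the strongest falls. They are from RefSeq on assembly GRCm38.p6, which held an entry for 119 of the 152 members. Letters in capitals mark matches on either strand to GGGCGG (the GC box), CCAAT (the CCAAT box), TATAAA (the TATA box) or CACGTG (an E-box).
Slc25a4, chr8:46211063-46211312, reverse strand: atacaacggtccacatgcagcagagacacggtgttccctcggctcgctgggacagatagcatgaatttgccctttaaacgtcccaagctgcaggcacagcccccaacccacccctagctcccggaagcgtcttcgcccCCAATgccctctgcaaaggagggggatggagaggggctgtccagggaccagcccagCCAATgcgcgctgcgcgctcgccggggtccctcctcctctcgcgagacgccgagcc
Slc25a5, chrX:36795347-36795596, forward strand: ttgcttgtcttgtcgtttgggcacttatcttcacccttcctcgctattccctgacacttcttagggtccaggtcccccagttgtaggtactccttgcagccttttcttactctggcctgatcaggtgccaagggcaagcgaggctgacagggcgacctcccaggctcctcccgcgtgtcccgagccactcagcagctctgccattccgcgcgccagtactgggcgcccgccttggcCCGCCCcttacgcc
Slc7a10, chr7:35186135-35186384, forward strand: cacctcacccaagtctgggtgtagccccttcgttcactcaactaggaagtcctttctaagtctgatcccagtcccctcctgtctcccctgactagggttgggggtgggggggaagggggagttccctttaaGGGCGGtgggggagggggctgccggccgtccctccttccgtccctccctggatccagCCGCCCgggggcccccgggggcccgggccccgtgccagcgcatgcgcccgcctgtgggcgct
Slc38a5, chrX:8271131-8271380, forward strand: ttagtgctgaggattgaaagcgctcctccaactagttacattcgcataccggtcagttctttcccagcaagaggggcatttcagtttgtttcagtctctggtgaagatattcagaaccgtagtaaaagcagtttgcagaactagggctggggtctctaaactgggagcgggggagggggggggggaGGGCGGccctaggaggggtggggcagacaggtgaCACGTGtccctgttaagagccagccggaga

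The Slc25a4 window held 2 CCAAT matches and no GGGCGG, and the Slc25a5 window held 1 GGGCGG match, 14 bases before the start, and no CCAAT. The Slc7a10 window held 2 GGGCGG matches, and the Slc38a5 window held 1 GGGCGG and 1 CACGTG match, the latter 30 bases before the start. No window held TATAAA. The GC box GGGCGG occurs in 32.7% of all 32851 windows of this length in the table, CCAAT in 33.8%, TATAAA in 12.4% and CACGTG in 6.02%. Among the 162 windows of members these shares were 64.2%, 30.9%, 4.32% and 13%. Members were selected for at least 10 counts and the 32851 windows were not, so these shares are not like for like. No share over the genes tested was taken, so a trait of Slc promoters cannot be read from them. The last 20 bases of each stored sequence, which lie past the RefSeq start, were sought in GENCODE transcripts. They were found for Slc25a4, Slc7a10 and Slc38a5 and not for Slc25a5. A match anywhere in a transcript was accepted, so this does not settle where a start lies, and that of Slc25a5 stays uncertain. The matches describe letters in these windows and say nothing of binding.

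Amino acid, peptide and osmolyte transporters differed in both directions, with 4 of 27 members higher and 5 lower. Beside them stand 8.11% and 8.59% of all genes tested, with no test of the class. Transporters of cationic and large neutral amino acids were among the higher ones, and transporters of small neutral amino acids and of glutamate were among the lower ones. Their median log2 ratio was −0.097, and 13 of 27 lay above 0. Summed over the class, counts went from 1692 to 1435, 1.17-fold lower (1.09 to 1.25), and without Slc36a2 the sums of 1459 and 1389 gave 1.04-fold lower (0.964 to 1.12).

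Slc7a2, which carries arginine and lysine into the cell, had 8 saline and 88 bleomycin counts, an 11.1-fold higher level (5.41 to 26.6). Its relative Slc7a1, the widely expressed arginine carrier, had 26 and 24 counts. These pairings and the sums without a gene were chosen after the values were seen. Slc7a2 held 23.5% (10.7 to 41.2) of the counts of this pair in the saline library and 78.6% (69.8 to 85.8) in the bleomycin library. Slc7a5, the leucine and large neutral amino acid exchanger often called LAT1, had 12 and 70 counts and was 5.9-fold higher (3.17 to 12). Slc7a6, which exchanges cationic for neutral amino acids, had 22 and 55 counts and was 2.53-fold higher (1.52 to 4.35). Slc7a6 overlaps Slc7a6os on the opposite strand, and since the use of strand is not given, tags of this pair are uncertain. Slc7a6os had 12 and 10 counts.

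Slc7a5, Slc7a6, Slc7a7 and Slc7a10 reach the cell surface only when bound to the heavy chain encoded by Slc3a2. Slc3a2 was the most abundant member of the class, with 341 and 256 counts, 1.32-fold lower (1.12 to 1.56) and so short of 2-fold. The light chains summed to 112 and 132 counts, a ratio of 1.19 (0.920 to 1.55). Within them the make-up differed: Slc7a5 held 10.7% (5.66 to 18) of their counts in the saline library and 53% (44.2 to 61.8) in the bleomycin library. Slc7a10, an exchanger of small neutral amino acids such as alanine and serine and a known surface marker of white fat cells, held most of the saline counts, with 68 against 3 in bleomycin, and was 22.4-fold lower (7.35 to 111). Slc7a7 had 10 and 4 counts and was not called.

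Slc36a2, a proton-coupled carrier of glycine, alanine and proline that is known as a surface marker of brown fat cells, had 233 and 46 counts, a level 5.01-fold lower (3.64 to 7.03). Its relative Slc36a1, which exports amino acids from lysosomes, had 12 and 20 counts and was not called. Slc38a5, a sodium-coupled carrier of glutamine and other neutral amino acids, had 108 and 18 counts, a level 5.93-fold lower (3.58 to 10.4). The related glutamine carriers Slc38a2, with 104 and 77 counts, and Slc38a10, with 93 and 160 counts, were not called. Slc1a3, a glutamate transporter best known from astrocytes, had 71 and 28 counts, a level 2.51-fold lower (1.6 to 4.03). Slc17a8, which loads glutamate into vesicles, had 46 and 13 counts, a level 3.5-fold lower (1.86 to 7.06). Slc1a5, the main neutral amino acid and glutamine carrier of many cultured cells, had 155 and 98 counts, 1.56-fold lower (1.21 to 2.04).

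Of the osmolyte, creatine and glycine carriers of family 6, Slc6a8 alone was called. Slc6a8, the creatine transporter, had 13 and 29 counts and was 2.26-fold higher (1.14 to 4.73), a call lost with library totals, DESeq2 size factors or no minimum count. Slc6a6, the taurine transporter, had 81 and 138 counts, a ratio of 1.72 (1.3 to 2.3), and Slc6a9, a glycine transporter, had 6 and 12, and neither was called. Slc7a14, a lysosomal family member best known from neurons, ranked next to Slc3a2 in the class by the sum of both libraries, at 147 and 178 counts, a ratio of 1.22 (0.979 to 1.53).

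Transport genes that the transcription factor Atf4 is known to control under amino acid shortage did not share a direction. Of 9 listed, 7 were tested, and 1, Slc7a5, was higher and 0 lower. This stands beside 8.11% higher and 8.59% lower over all genes tested, with no test of the list. Slc3a2, Slc1a5, Slc38a2, Slc1a4 and Slc7a1 had ratios below 1, from 0.639 to 0.934, and Slc6a9 had 2.02 (0.703 to 6.57). Slc7a11, the cystine importer, had 2 and 3 counts, and Slc7a3 had 0 and 1, so neither reached 10 counts.

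**Figure D2:**
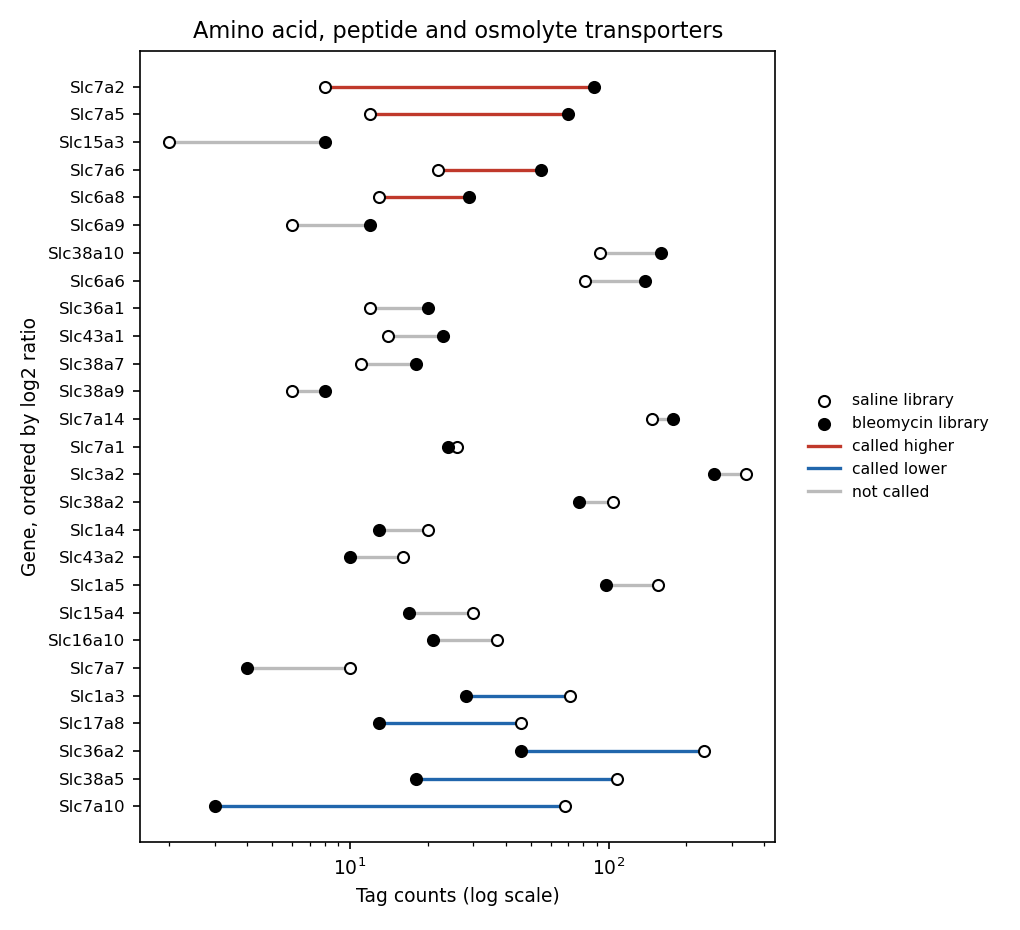
Tag counts (log scale) of the 27 amino acid, peptide and osmolyte members in the saline (open circles) and bleomycin (filled circles) libraries, ordered by log2 ratio. The longest lines join 8 and 88 counts of Slc7a2 and 68 and 3 counts of Slc7a10.

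Of 21 metal transporters 5 were called higher and 1 lower, beside 8.11% and 8.59% of all genes tested, with no test of the class. The median log2 ratio was 0.52, and 15 of 21 members lay above 0. Summed counts went from 900 to 1414, a ratio of 1.59 (1.46 to 1.73), and without Slc39a14 from 834 to 1081, a ratio of 1.31 (1.20 to 1.44). So the sum stayed above 1 without its most changed gene.

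The Slc39 (ZIP) family moves zinc and other metals into the cytosol, and most of the Slc30 (ZnT) family moves zinc out of it. Slc39 members summed to 544 and 1044 counts, a ratio of 1.94 (1.75 to 2.16), and Slc30 members to 186 and 204, a ratio of 1.11 (0.905 to 1.36). The Slc39 share of the counts of both families was 74.5% (71.2 to 77.6) in saline and 83.7% (81.5 to 85.7) in bleomycin. Slc39a14, a carrier of zinc, manganese and iron that is induced in liver during the acute phase response, had 66 and 333 counts and was 5.1-fold higher (3.91 to 6.75). Without it, the other 9 Slc39 members summed to 478 and 711 counts, a ratio of 1.504 (1.34 to 1.69). Slc39a6, a zinc importer of the plasma membrane, had 10 and 37 counts and was 3.74-fold higher (1.82 to 8.44).

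The most abundant metal transporter, Slc39a1, had 252 and 368 counts, a ratio of 1.48 (1.25 to 1.74). Slc39a7, which releases zinc from the endoplasmic reticulum, had 114 and 162, a ratio of 1.44 (1.12 to 1.84). Slc39a13, a zinc carrier of the secretory pathway whose loss causes a connective tissue disorder, had 40 and 61, a ratio of 1.54 (1.02 to 2.36). None of these reached 2-fold. In the Slc30 family, Slc30a7, which carries zinc into the Golgi apparatus, had 19 and 43 counts and was 2.29-fold higher (1.31 to 4.16). Slc30a9 had 81 and 44 counts, 1.82-fold lower (1.25 to 2.69), and was not called.

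The families Slc31 (copper), Slc40 (iron export) and Slc41 (magnesium) each had a single called member. Slc31a1, the main copper importer, had 23 and 48 counts and was 2.11-fold higher (1.26 to 3.64), while its relative Slc31a2 had 22 and 17 and was not called. Slc40a1, ferroportin, which exports iron from cells, had 7 and 31 counts and was 4.48-fold higher (1.93 to 12.1). The transferrin receptor gene Tfrc, which is no Slc gene and takes up iron, had 1 and 17 counts, a ratio of 17.2 (2.69 to 718) that is uncertain in size. Slc41a3, a magnesium transporter, had 72 and 28 counts, a level 2.54-fold lower (1.62 to 4.09), while Slc41a1 had 46 and 42.

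**Figure D3:**
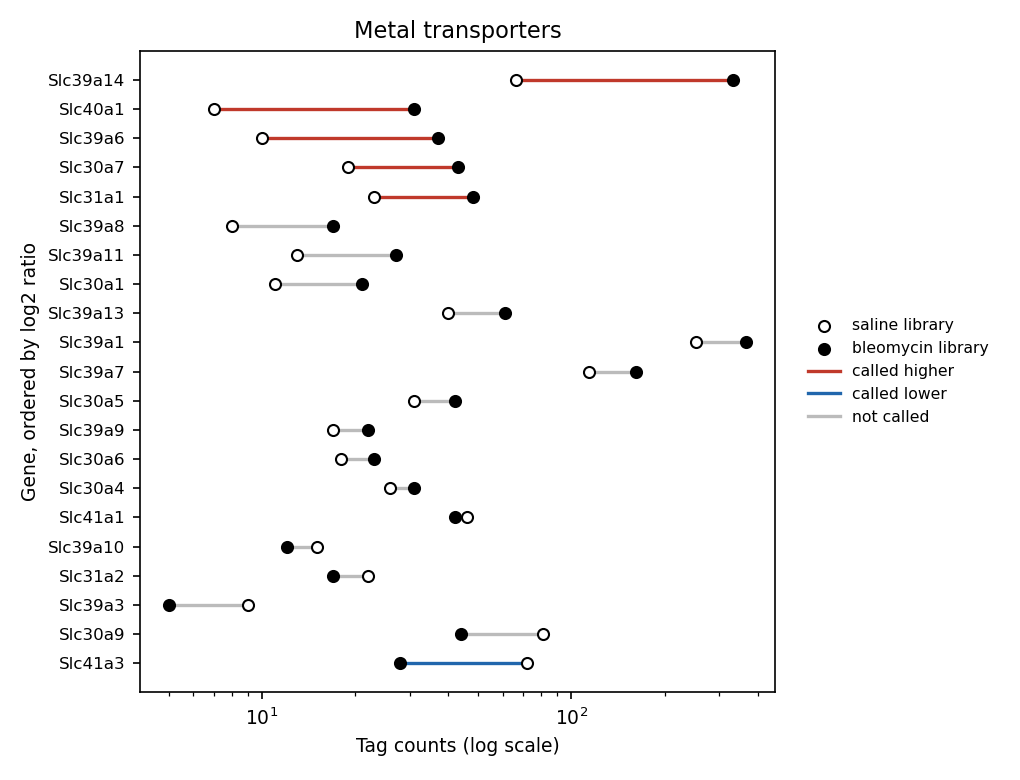
Tag counts (log scale) of the 21 metal transporter members in the saline (open circles) and bleomycin (filled circles) libraries, ordered by log2 ratio. The 5 red lines are members called higher, from Slc31a1 at 23 and 48 counts to Slc39a14 at 66 and 333, and the blue line is Slc41a3.

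Both sodium-dependent phosphate importers with at least 10 counts were higher. Slc20a1, the widely expressed importer also known as a retrovirus receptor, had 50 and 241 counts and was 4.87-fold higher (3.58 to 6.75). Slc20a2, its close relative, had 12 and 46 counts and was 3.88-fold higher (2.02 to 8.04). The share of Slc20a1 in the pair was 80.6% (68.6 to 89.6) in saline and 84.0% (79.2 to 88.0) in bleomycin, so their relative levels differed by less than the counting error. Slc34a2, the phosphate importer of alveolar type 2 cells, had 1 and 0 counts.

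Mitochondrial carriers, the Slc25 family, shuttle metabolites across the inner mitochondrial membrane. Of 30 members 3 were higher and 2 lower, near the 8.11% and 8.59% of all genes tested. The median log2 ratio was 0.036, with 16 members above 0. They were the class with the most counts, 2429 and 2580, of which Slc25a3, Slc25a4 and Slc25a5 held 57.4% in saline and 66.9% in bleomycin. Without Slc25a5 the sums were 2207 and 2009, 1.09-fold lower (1.02 to 1.15).

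Slc25a5 and Slc25a4 encode the 2 main exchangers of mitochondrial ATP for cytosolic ADP, the former known from dividing cells and the latter from heart and muscle. Slc25a5 had 222 and 571 counts and was 2.6-fold higher (2.22 to 3.05), whereas Slc25a4 had 367 and 440, a ratio of 1.21 (1.05 to 1.40). The share of Slc25a5 in the pair was 37.7% (33.8 to 41.7) in saline and 56.5% (53.4 to 59.6) in bleomycin, so the more abundant gene of the pair was Slc25a4 in saline and Slc25a5 in bleomycin. Near-identical copies exist for Slc25a5, so the assignment of its tags is uncertain. Slc25a3, the phosphate carrier and the most abundant of all members, had 806 and 715 counts, 1.11-fold lower (1.01 to 1.23).

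Among the less abundant carriers, Slc25a20, which brings acylcarnitines in for fatty acid oxidation, had 13 and 35 counts and was 2.72-fold higher (1.41 to 5.61). Slc25a46, which acts on the outer membrane in mitochondrial shape and fission, had 17 and 49 counts and was 2.91-fold higher (1.65 to 5.4). Of the calcium-regulated exchangers of ATP-magnesium for phosphate, Slc25a23 had 29 and 12 counts, a level 2.39-fold lower (1.18 to 5.14), a call lost with no minimum count. Slc25a25 had 361 and 204, 1.75-fold lower (1.47 to 2.09) and short of 2-fold, and Slc25a24 had 47 and 55. Slc25a35 had 25 and 4 counts, a level 6.18-fold lower (2.13 to 24.4). The carriers for citrate, Slc25a1, with 54 and 45 counts, for oxoglutarate, Slc25a11, with 82 and 63, and for aspartate and glutamate, Slc25a12, with 49 and 47, were not called.

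The Slc35 family, which carries nucleotide sugars and related substrates into the Golgi apparatus and endoplasmic reticulum, had 1 of 15 members higher and 0 lower. Among all genes tested 8.11% were higher and 8.59% lower. The median log2 ratio was 0.34, 11 of 15 members lay above 0, and summed counts went from 383 to 474, a ratio of 1.25 (1.09 to 1.44). Slc35e4, whose substrate is not established, had 12 and 39 counts and was 3.29-fold higher (1.69 to 6.9). The most abundant members, Slc35b1 with 149 and 159 counts and Slc35f5 with 56 and 69, were not called. Slc35b2, which supplies the sulphate donor for proteoglycan sulphation, had 12 and 19 counts, and Slc35b4 had 14 and 23, and neither was called.

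No carrier of sugars or carboxylates was called. The 10 sugar members had a median log2 ratio of 0.15 and summed to 172 and 203 counts, a ratio of 1.19 (0.969 to 1.47). Slc2a1, the glucose importer GLUT1, had 19 and 30 counts, a ratio of 1.6 (0.870 to 3.0), and the most abundant, Slc50a1, had 67 and 81. The 4 members classed as carboxylate carriers summed to 153 and 173, a class that leaves out their family member Slc16a10 (37 and 21 counts), which was placed with the amino acid carriers. Slc16a1, a lactate and pyruvate carrier, had 34 and 56 counts, a ratio of 1.67 (1.07 to 2.63), and Slc16a3, the lactate exporter of glycolytic cells, had 17 and 9. Slc16a9, the most abundant of them, had 72 and 51. Bsg, basigin, the partner that brings lactate carriers to the surface, had 1333 and 1159 counts, 1.14-fold lower (1.05 to 1.23).

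Of 16 transporters of sodium, potassium, calcium, chloride, bicarbonate and protons 2 were called lower and 0 higher. Over all genes tested 8.59% were lower and 8.11% higher, with no test of the class. Of the 16 transporters, 13 had log2 ratios below 0, and the median was −0.35. Summed counts went from 544 to 417, 1.29-fold lower (1.13 to 1.47). Slc24a3, an exchanger of sodium for calcium and potassium, had 35 and 10 counts, a level 3.46-fold lower (1.68 to 7.84). Slc9a9, a proton exchanger of endosomes, had 21 and 7 counts, a level 2.97-fold lower (1.21 to 8.26), a call lost with no minimum count. The most abundant member, the potassium-chloride carrier Slc12a4 with 132 and 98 counts, was not called, nor was the sodium-calcium exchanger Slc8a1 with 58 and 54.

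**Figure D4:**
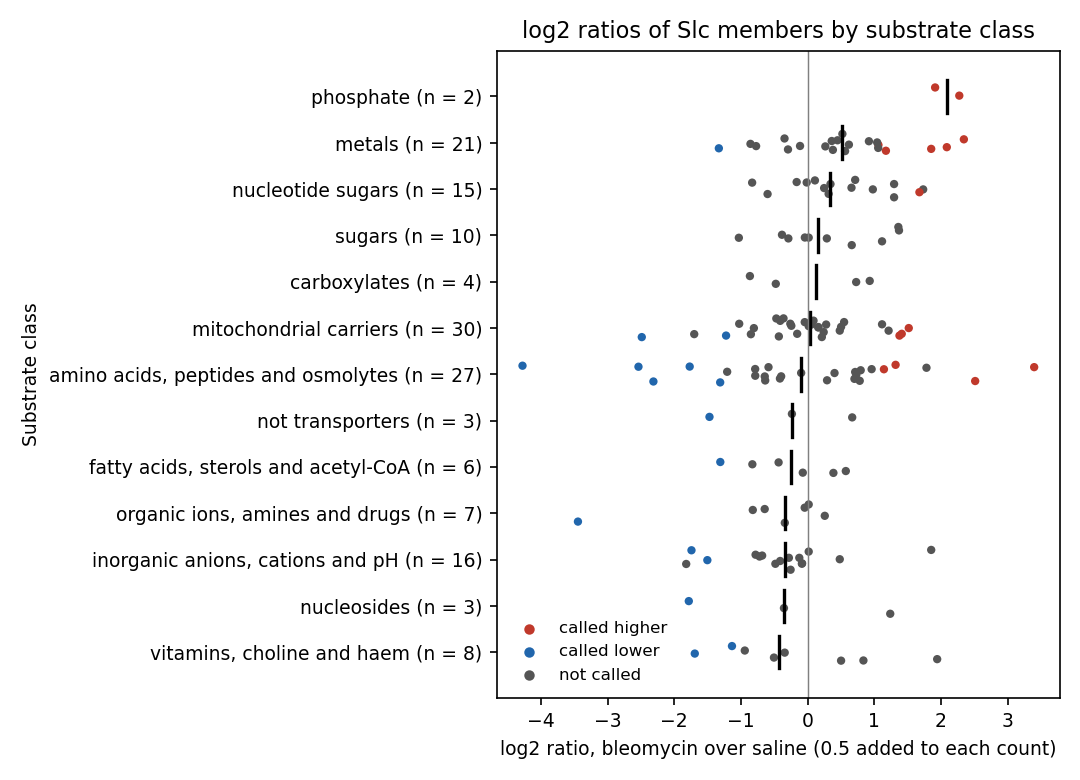
The log2 ratio of each member by substrate class, with 0.5 added to each count, classes ordered by their median (black bar). Phosphate (median 2.09, 2 members) and metals (0.52, 21 members) lie at the top, and vitamins, choline and haem (−0.42, 8 members) at the bottom.

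Of the carriers of fatty acids and sterols 1 of 6 was called lower, of vitamins, choline and haem 2 of 8, of nucleosides 1 of 3 and of organic ions 1 of 7, and 0 were higher. Over all genes 8.59% were lower. Slc27a3, of the fatty acid transport protein family, had 111 and 44 counts, a level 2.49-fold lower (1.74 to 3.62), and its relative Slc27a4 had 33 and 24. Slc10a6, a carrier of sulphated steroids, had 171 and 95 counts, 1.78-fold lower (1.38 to 2.31), and was not called. Slc29a1, the equilibrative nucleoside transporter that takes up adenosine, had 109 and 31 counts, a level 3.48-fold lower (2.31 to 5.36). Slc43a3, a nucleobase transporter also known from endothelium, ranked next to Slc25a3 among all members by the sum of both libraries, at 608 and 470 counts, 1.28-fold lower (1.13 to 1.45).

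Slc23a2, which takes up ascorbate, the cofactor of collagen prolyl hydroxylases, had 45 and 20 counts, a level 2.22-fold lower (1.29 to 3.98). Slc46a1, the proton-coupled folate transporter, had 24 and 7 counts, a level 3.39-fold lower (1.42 to 9.32), while the reduced folate carrier Slc19a1 had 12 and 17. The choline transporter-like genes pointed in opposite directions without a call, Slc44a2 with 87 and 154 counts, a ratio of 1.79 (1.37 to 2.36), and Slc44a1 with 84 and 43, 1.93-fold lower (1.32 to 2.86). The haem transporter Slc48a1 had 72 and 56 counts. Slc22a3, an organic cation transporter that clears monoamines, had 16 and 1 counts, a level 15.8-fold lower (2.46 to 663), a size that rests on 1 count. Slc22a17 with 54 and 34 counts and Slc22a15 with 45 and 35 were the most abundant of the organic ion carriers and were not called.

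The scaffold gene Slc9a3r2, which tethers transporters and receptors to the cytoskeleton and is abundant in endothelium, had 71 and 25 counts, a level 2.81-fold lower (1.76 to 4.62). The related Slc9a3r1 had 10 and 16 counts and was not called. Endothelial markers were lower in the same library, at 554 and 38.7 CPM. Their part in the lower counts of Slc9a3r2, Slc43a3, Slc29a1 and the other lower members was not tested.

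**Figure D5:**
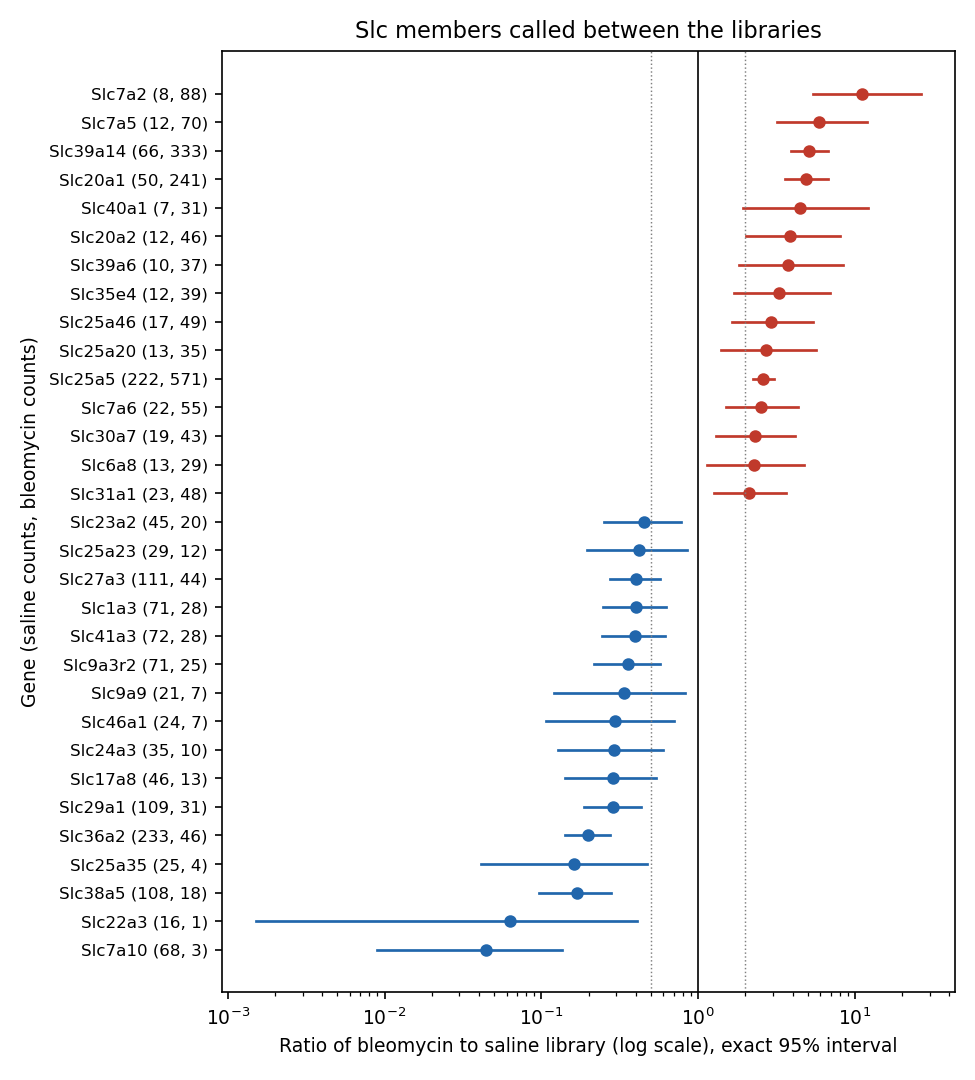
Ratio of the bleomycin to the saline library (log scale) with its exact 95% interval for the 31 members called, with both counts beside each gene. Dotted lines mark ratios of 2 and 0.5, and the intervals are widest for Slc22a3 (16 and 1 counts) and Slc7a10 (68 and 3).

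Members were also grouped by the membrane assigned to each, which is approximate. The 26 members of the Golgi apparatus and endoplasmic reticulum had a median log2 ratio of 0.41, with 19 above 0, 2 called higher and 0 lower. The 78 members of the plasma membrane had a median of −0.27, with 33 above 0, 10 called higher and 10 lower. These counts stand beside 8.11% called higher and 8.59% lower over all genes tested. The 30 mitochondrial members had a median of 0.036 and the 14 of lysosomes and vesicles 0.14. Locations were assigned by family or, for some members, gene by gene, so single members can be misplaced. Slc25a17, counted as mitochondrial, is described in its own row as a peroxisomal membrane protein. No test of the difference between locations was made.

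Other transport genes were examined from lists. Of 4 tested genes of the related organic anion family Slco, 1 was higher and 1 lower, beside 8.11% and 8.59% of all genes tested. Slco4a1, a thyroid hormone carrier, was higher, with 0 and 28 counts. Its ratio was 9.44 with 3 counts set as the floor in the saline library, and the exact lower 95% limit was 7.18. Slco2b1, a carrier of steroid sulphates, had 90 and 10 counts, a level 8.9-fold lower (4.62 to 19.2), and Slco3a1, the most abundant, had 145 and 95. The calcium pump gene Atp2a3 had 18 and 3 counts, a level 5.93-fold lower (1.73 to 31.4).

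Of 17 vacuolar proton pump genes 1 was higher and 1 lower, Atp6v1h with 40 and 80 counts, 2.02-fold higher (1.37 to 3.03), and Atp6v0e2 with 15 and 3, 4.94-fold lower (1.40 to 26.6). For comparison, 8.11% of all genes tested were higher and 8.59% lower. The most abundant of the proton pump list, Atp6ap2, had 300 and 217 counts. None of 3 tested aquaporins was called. Aqp1, a water channel of endothelium and fibroblasts, had 450 and 227 counts, 1.96-fold lower (1.67 to 2.31). Among 9 tested partner proteins, Tfrc was higher and Cd36, a fatty acid receptor, was lower, with 60 and 4 counts and a ratio 14.8-fold lower (5.5 to 56.2).

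Depth limited what could be seen in the less abundant members. Of 66 members with a sum of at least 50 counts 21 were called, and of 86 with fewer 10 were called. Over all genes tested 16.7% were called. No share by depth was taken over all genes, so a trait of Slc genes cannot be read from this split. At the threshold of the selection, 6 members had exactly 10 counts, among them Slc15a3 with 2 and 8, Slc2a13 with 3 and 7 and Slc6a2 with 5 and 5. Just below it, 5 Slc rows had 9 counts, among them Slc16a7 with 9 and 0, Slc25a10 with 4 and 5 and Slc12a7 with 4 and 5. A count of 0 allows up to 2.74 CPM in saline and 2.77 in bleomycin. A further 14 members passed the adjusted p threshold with a ratio short of 2-fold, and the interval of 97 of the 121 members not called held a ratio of 1.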

How the data were processed

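Tag libraries of fibroblasts from saline and bleomycin mice were made with a SOLiD SAGE kit, per the labels' protocols. BWA 0.6.2 and the build mm9 are listed in the submitters' processing notes without saying what each was used for. The rule that tied tags to genes and any use of strand are not stated in the labels. The authors deposited whole-number counts per gene. Whether counts were scaled before deposit is not given, so intervals hold only if they are raw, and no molecular identifiers are named.

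After 1 blank line was left out, 16040 genes remained. Scaling used TMM factors from edgeR 4.0.16 (R 4.3.3). The quasi-likelihood test needs replicates and could not be fitted. Each gene with a sum of at least 10 was tested by a two-sided exact binomial test (scipy 1.17.1), with Benjamini-Hochberg adjustment over 9369 genes. The 2-fold limit was set on the plain ratio, and log2 ratios have 0.5 added to each count. A limit on counts with 0.5 added was tried after seeing the data, used for a time, and then kept only as an alternative. Intervals are Clopper-Pearson at 95%. The test was tried on simulated data.

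The members and gene lists were chosen with earlier results of these data known. Classes were described by counts and medians, with no test of a class. The naming rule took every called member, the 2 most abundant of each class, and members of the Atf4 and other-cell-type lists. Other members were named after their values were seen. A few transport genes are not reported here. Of 10 Slc genes listed as typical of other lung cell types, Slc9a3r2 alone was tested. Scaling, minimum count, fold limit, adjustment and prior count were varied.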

Additional observations from a re-analysis of the deposited data

How the results depend on the processing

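Of the 31 calls, 30 were also made with library totals and 30 with DESeq2 1.42.0 size factors, and Slc6a8 was the call lost under both. With no minimum count 28 of the 31 remained, Slc6a8, Slc25a23 and Slc9a9 were lost, and Slc16a7 (9 and 0 counts) was gained. A ratio of at least 3 left 8 members higher and 9 lower, and Bonferroni adjustment left 6 and 6. A minimum sum of 50 counts left 11 higher and 10 lower, all of them among the 31, because fewer members were tested. Over all genes, 1565 calls became 892 under that minimum, 918 under the 3-fold limit and 623 under Bonferroni. A 2-fold limit on counts with 0.5 added, chosen after seeing the data, gave 1555 calls and the same 31 members. The median log2 ratio of members, 0.016, was −0.025 with library totals, as was the median of all genes. With a minimum of 50 counts it was −0.084, against −0.021 over all genes. With no minimum it was 0.099, against 0.016 over all genes. The members' share of counts was 0.639% in each library with a minimum of 50 counts. For single genes the minimum of 50 counts was also chosen after seeing the data. No called member could change direction with library totals or DESeq2 size factors, because these scalings differ little. The TMM factors were 1.014 for saline and 0.986 for bleomycin. No paired analysis was possible because each group is 1 library. With 1 library a group, no replicate could be left out.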

Other observations

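A few rows of the table describe solute carriers under a phrase in place of a symbol and so lie outside the members. The row named UDP-galactose transporter had 7 and 24 counts and was 3.47-fold higher (1.45 to 9.53). The row named H+/peptide transporter fell from 13 counts to 0, at least 4.28-fold lower with 3 counts as the floor in the bleomycin library (exact limit 3.01). The row named CMP-sialic acid transporter had 15 and 21 counts and was not called.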
